A study of Mus musculus with 6 samples.

Results

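The genes of the mitochondrial ribosomal proteins were followed in splenic B cells with and without the tetraspanin CD37. Members were the genes whose symbol starts with Mrpl (large subunit) or Mrps (small subunit) followed by a number, which gave 77 of 19935 genes measured, 48 for the large and 29 for the small subunit. RefSeq's table for GRCm38.p6 lists 78 such protein-coding genes. The remaining gene, Mrpl53, shares its probe set with Ccdc142 and was not analysed here. RNA came from 3 WT (genotype Wild-Type) and 3 CD37KO (Cd37 -/-) mice of the C57BL/6J background, with 1 Affymetrix mouse gene array per mouse. GEO's labels give all mice an age of 3 months and call them littermates, while the methods give an older age range. The paper's figure legends give a range that includes 3 months for B cells of this fraction in other assays. The cells were the CD43-/B220+ fraction of the spleen, obtained by depleting CD43-positive cells with beads, with B220 staining used to assess purity. The deletion is present in the whole animal, so other cells of the spleen lack CD37 too. All values below are log2 levels after RMA, the authors' background correction, normalization and probe set summary.

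Mitochondria carry their own ribosome, which translates the few proteins encoded by mitochondrial DNA, all of them core subunits of the respiratory chain and the ATP synthase. Its ribosomal RNAs are made inside the organelle, whereas every protein of the ribosome is encoded in the nucleus, translated in the cytosol and imported. The small subunit binds and decodes the mRNA, and the large subunit forms the peptide bond and is anchored to the inner membrane. Part of the proteins have counterparts in bacterial ribosomes and the others occur only in mitochondria. Activated B cells are known to increase their mitochondrial respiration.

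The promoters of the members were searched for short motifs. RefSeq windows on GRCm38.p6, from 250 bases before to 50 bases after a start site, were found for 68 of the 77 members. The motif of ETS factors, among them GABP (nuclear respiratory factor 2), was searched as CCGGAAG, that of nuclear respiratory factor 1 (NRF1) as GCGCA, any base and GCGC, and that of YY1 as AAGATGGC, each on both strands and each counted also where matches overlapped. These 3 factors are known regulators of nuclear genes for mitochondria. The stretches below are shown because they belong to the members whose array values are described further on, and capitals mark the matched motif on either strand. They are the ETS stretches of Mrps16 (chr14:20393540-20393582, minus strand), Mrpl3 (chr9:105053231-105053273, plus strand), Mrps22 (chr9:98601666-98601708, minus strand) and Mrps18a (chr17:46110960-46111002, plus strand). The NRF1 stretches are those of Mrpl57 (chr14:57826164-57826209, plus strand), Mrps21 (chr3:95871578-95871623, minus strand) and Mrpl12 (chr11:120484538-120484583, plus strand), and the YY1 stretch is that of Mrps12 (chr7:28741995-28742038, minus strand).
Mrps16: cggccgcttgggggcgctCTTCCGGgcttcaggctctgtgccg
Mrpl3: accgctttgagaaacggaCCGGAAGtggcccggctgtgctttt
Mrps22: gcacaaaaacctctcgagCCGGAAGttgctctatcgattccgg
Mrps18a: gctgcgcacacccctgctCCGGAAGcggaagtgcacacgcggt
Mrpl57: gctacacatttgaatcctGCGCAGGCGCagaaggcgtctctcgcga
Mrps21: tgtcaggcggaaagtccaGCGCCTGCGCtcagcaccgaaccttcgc
Mrpl12: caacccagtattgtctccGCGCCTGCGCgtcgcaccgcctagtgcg
Mrps12: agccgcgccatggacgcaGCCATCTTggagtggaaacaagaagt

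An ETS match was present for 25 of 68 members (36.8%), against 13.8% of the 15003 measured protein-coding genes with a window. NRF1 matches were found for 13 members (19.1%, against 8.03%) and YY1 matches for 12 (17.6%, against 3.83%). Small subunit genes held an ETS match in 11 of 26 and large subunit genes in 14 of 42. The order was the other way for NRF1, with 3 of 26 and 10 of 42. Matches to the GC box (GGGCGG) were found for 34 of 68 members, against 53.7% of all genes, and those to CCAAT for a similar share (38.2% against 41.8%), and the TATA motif (TATAAA) was found for 7.35% of members against 13.8%. The windows of members held a median of 21 CG dinucleotides against 15 in all genes, with similar base composition (58.5% against 57.7% G and C). A match is a description of the letters and does not show that a factor binds there. The shares were not compared with those of genes above background or of respiratory chain genes.

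**Figure D1:**
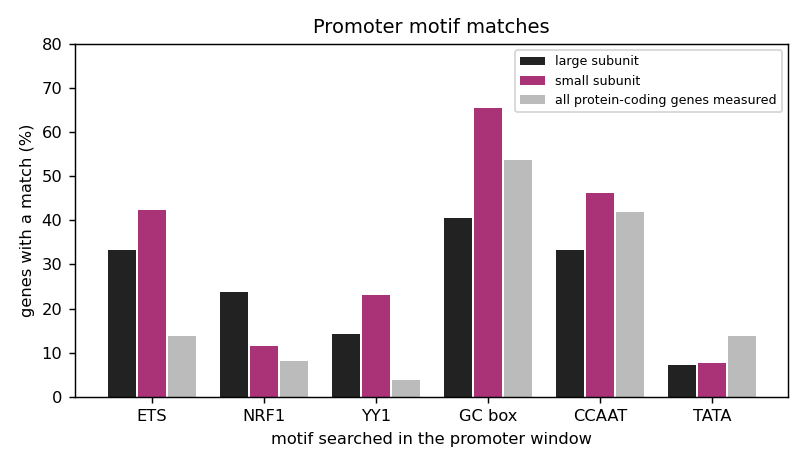
Share of genes (%) whose promoter window holds a match to each of 6 motifs, for large subunit genes (42 with a window), small subunit genes (26) and all measured protein-coding genes (15003). Bars of both subunits exceed that of all genes for ETS, NRF1 and YY1 but not for TATA.

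The labels and the cells were checked first. Cd37 was at 11.99, 11.83 and 12.08 in the WT arrays and at 8.15, 8.17 and 8.17 in the CD37KO arrays, which is -3.80 ± 0.076 (SE) on the log2 scale with an adjusted p of 1.37e-07 from limma. All 9 measured B cell markers were above background in every array, with array means of 11.67 to 11.74 in WT and 11.67 to 11.71 in CD37KO. Background was a log2 level of 5.77, the 95th percentile of 1015 olfactory receptor genes, which B cells are not known to use. Of 12 neutrophil markers, 11 were higher in CD37KO at an unadjusted p under 0.05 from limma, with array means of 6.01 to 6.25 in WT and 6.54 to 7.93 in CD37KO. The 13 macrophage and monocyte markers had array means of 8.30 to 8.997 in WT and 8.12 to 9.15 in CD37KO, with 1 marker higher. Stromal and endothelial markers had array means of 7.003 to 7.20 in WT and 6.80 to 6.89 in CD37KO, and 2 of 6 were lower at an unadjusted p under 0.05, Igfbp7 (difference -0.71) and Sparc (-0.37). Of 7 T cell markers, Cd3e and Cd4 were above background in all 6 arrays and Cd3d, Cd3g and Trat1 in none. Their array means, 5.60 to 5.69 in WT and 5.57 to 5.59 in CD37KO, lay below background and did not overlap. None of these 7 markers passed an unadjusted p under 0.05 from limma. Of 6 dendritic cell markers, 4 were above it in all arrays, among them Siglech, which was lower in CD37KO at an unadjusted p under 0.05 (difference -0.28), and Xcr1 and Clec9a in none. In such a mixture fewer cells of a type and less RNA per cell cannot be told apart.

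No mitochondrial ribosomal protein gene passed an adjusted p under 0.05 from limma in the comparison of CD37KO with WT cells, over 19935 genes tested, of which 11 (0.0552%) passed, 0.0251% higher and 0.0301% lower. At an unadjusted p under 0.05, which 5.95% of all genes passed, 3 members were higher, Mrpl3, Mrpl57 and Mrps22, and 1 was lower, Mrps16. The 3 higher are 3.90% of the members, against 2.96% of all genes and 5.10% of genes above background. The 1 lower is 1.30%, against 2.99% and 2.10%. The groups did not overlap for 6 members that were higher in CD37KO (7.79%, against 4.33% of all genes and 6.98% of genes above background) and for 1 that was lower (against 7.57% and 4.62%). The shares of higher members lie between or near those of both backgrounds, and those of lower members lie under them. The 77 log2 differences ran from -0.23 to 0.49, with a median of 0.065 and quartiles of 0.0081 and 0.14. The median of all genes was -0.019 and that of the 9874 genes above background was 0.017. A difference above 0 was found in 59 of 77 members (76.6%), against 41.8% of all genes and 57.0% of genes above background. After a further quantile normalization this was 46 of 77, against 47.2% of all genes.

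The count of members higher at an unadjusted p under 0.05 rested on single arrays. It was 14 when CD37KO replicate 2 was left out, 7 and 6 when WT replicate 2 or 3 was, and 1 when WT replicate 1 was. The shares of all genes higher in these fits were 6.48%, 3.71%, 2.66% and 2.23%, against 2.96% with all arrays. Leaving out CD37KO replicate 1 or 3 gave 2 members, with 1.91% and 1.52% of all genes. The count of lower members was 4 in place of 1 without WT replicate 2. The share of all genes lower in that fit is not given, so this count has no background to be read against. The median width of the 95% interval on each side of a member's difference was 0.19, and for 71 of 77 members the whole interval lay between -0.5 and 0.5. Of the 77 members, 73 were above background in all 6 arrays, 46 of the large and 27 of the small subunit. Mrpl44 and Mrps26 were above it in 4 arrays, Mrps12 in 1 and Mrpl22 in none, so that their differences may be compressed.

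**Figure D2:**
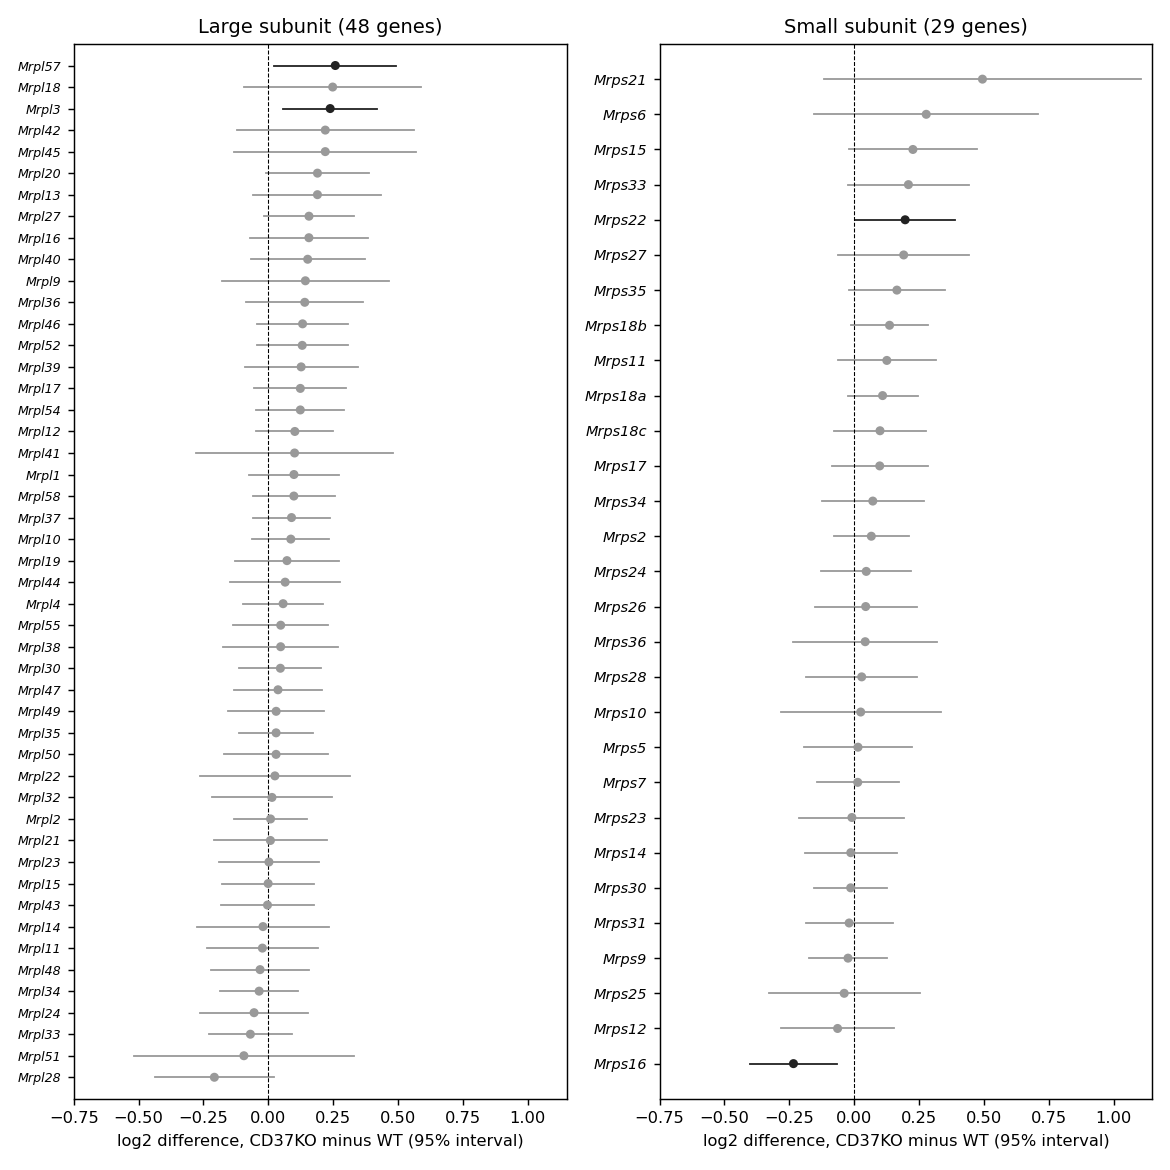
Difference on the log2 scale (mean of 3 CD37KO minus mean of 3 WT arrays) for the 48 large and 29 small subunit genes, with 95% intervals from limma as lines; black marks an unadjusted p under 0.05. Most points lie slightly to the right of 0, Mrps16 and Mrpl28 lie lowest and Mrps21 has the widest interval.

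Among large subunit proteins, Mrpl3, a protein close to the peptidyl transferase centre, separated the groups. Its levels were 8.30, 8.25 and 8.42 in WT and 8.62, 8.44 and 8.64 in CD37KO, so CD37KO was higher by 0.24 ± 0.079 (SE, log2) or 1.18-fold, with an adjusted p of 0.801 from limma. Every CD37KO array exceeded every WT array, though WT replicate 3 and CD37KO replicate 2 were close. Mrpl57, a protein found only in mitochondrial ribosomes, was at 8.16, 7.89 and 8.29 in WT and at 8.29, 8.39 and 8.43 in CD37KO, a gap of 0.26 ± 0.10 (SE, log2) with an adjusted p of 0.801 from limma. The highest WT and the lowest CD37KO array met at 8.29, and WT replicate 2 lay apart below. For a single gene with 3 arrays against 3, an exact two-sided permutation test cannot go below p = 0.10, which Mrpl3 reached, and Mrpl57 had an exact p of 0.20.

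Mrpl20, Mrpl27 and Mrpl52 also separated the genotypes upwards in CD37KO, with log2 differences of 0.19, 0.16 and 0.13. Mrpl18 had a difference of 0.25 that came from CD37KO replicate 3 at 7.67, while the other 5 arrays lay between 6.89 and 7.19. Without that array the difference was 0.074. Mrpl28 went the other way, with 6.52, 6.29 and 6.65 in WT and 6.18, 6.36 and 6.30 in CD37KO, a log2 difference of -0.21 (95% interval -0.44 to 0.021). WT replicate 2 lay inside the CD37KO range, so the groups overlapped. Mrpl51 and Mrpl33 had the next lowest differences, -0.09 and -0.07, with overlapping groups.

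Parts of the large subunit were also read together, by groups drawn from general knowledge after the values had been seen. Beside Mrpl3, the proteins around the peptidyl transferase centre had log2 differences of 0.16 for Mrpl16, 0.16 for Mrpl27 and 0.0087 for Mrpl2. The stalk that recruits translation factors is formed by Mrpl10, Mrpl11 and Mrpl12, and their differences were 0.09, -0.02 and 0.10. Mrpl12, which is also known to bind the mitochondrial RNA polymerase, was at 7.11, 7.01 and 7.15 in WT and at 7.22, 7.14 and 7.22 in CD37KO, with a single overlap between WT replicate 3 and CD37KO replicate 2. At the exit of the peptide tunnel, Mrpl22, Mrpl23, Mrpl24 and Mrpl47 had differences of 0.03, 0.0024, -0.05 and 0.04. Mrpl45, which anchors the ribosome to the inner membrane, had one of 0.22 with a wide interval (-0.13 to 0.57). Mrpl58, a peptidyl-tRNA hydrolase that rescues stalled ribosomes and also sits in the large subunit, had one of 0.10, and Mrpl44, a protein with a ribonuclease III fold, 0.07. Mrpl41, which has been tied to apoptosis, had a difference of 0.10 with CD37KO arrays from 6.41 to 7.11, both below and above all WT arrays. Its second probe set did not follow this pattern (r = -0.10). That set was at 6.57, 6.73 and 6.60 in CD37KO, with a difference of 0.11.

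In the small subunit, Mrps16 had the lowest difference. This counterpart of bacterial protein S16 was at 7.27, 7.13 and 7.26 in WT and at 6.98, 6.90 and 7.07 in CD37KO, which gives -0.23 ± 0.073 (SE, log2) or a fold of 0.85, with an adjusted p of 0.801 from limma. Every CD37KO array was lower than every WT array. Its unadjusted p stayed under 0.05 when any array was left out, with differences from -0.28 to -0.19, and the exact p was 0.10. Mrps22, a protein of the mitochondrial small subunit only, was at 7.50, 7.54 and 7.32 in WT and at 7.74, 7.68 and 7.53 in CD37KO, a gap of 0.20 ± 0.084 (SE, log2) with an adjusted p of 0.801 from limma. Here WT replicate 2 and CD37KO replicate 3 overlapped by a small margin. With 1 array left out, Mrps22 and Mrpl57 each had an unadjusted p under 0.05 from limma in 2 of 6 fits, and Mrpl3 in 3.

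Mrps21 had the largest difference of any member, 0.49, and also the largest spread. It was at 7.99, 7.19 and 8.20 in WT and at 8.64, 7.90 and 8.33 in CD37KO, with a 95% interval of -0.12 to 1.11. Replicate 2 was the lowest array of both genotypes, and leaving out single arrays moved the difference between 0.19 and 0.70. The sign of Mrps21 was kept in 15 of 16 alternatives, and with the neutrophil markers as a covariate the difference was -0.21. Mrps6, the neighbour of S18 proteins on the platform, had a difference of 0.28 that rested on CD37KO replicate 3 at 8.38. The other 5 arrays of Mrps6 lay between 7.52 and 7.81, and the difference was 0.042 without that array. Mrps15 differed by 0.23, with CD37KO arrays of 9.33, 9.02 and 9.24 against 9.01, 8.79 and 9.11 in WT. It too kept its sign in 15 of 16 alternatives, with -0.05 under the neutrophil covariate. Mrps12, the counterpart of the bacterial decoding protein S12, had a difference of -0.06 and Mrps25 one of -0.04. Mrps34 had one of 0.07.

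Mammals carry 3 versions of the S18 protein, Mrps18a, Mrps18b and Mrps18c. Mrps18a was at 8.11, 8.06 and 8.06 in WT and at 8.23, 8.16 and 8.16 in CD37KO, a log2 difference of 0.11 (95% interval -0.025 to 0.24). Mrps18b was at 9.54, 9.56 and 9.52 in WT and at 9.74, 9.70 and 9.58 in CD37KO, a difference of 0.14 (95% interval -0.012 to 0.29). Both kept the genotypes apart, with CD37KO higher, and a tight WT spread (SD 0.027 and 0.021, n = 3), and neither passed an unadjusted p under 0.05. Mrps18c had a difference of 0.10 (95% interval -0.077 to 0.28) with overlapping groups. Although named as small subunit proteins, Mrps18a and Mrps30 are known to sit in the large subunit, and Mrps36 is known to belong to the 2-oxoglutarate dehydrogenase complex. The differences of Mrps30 and Mrps36 were -0.01 and 0.04.

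**Figure D3:**
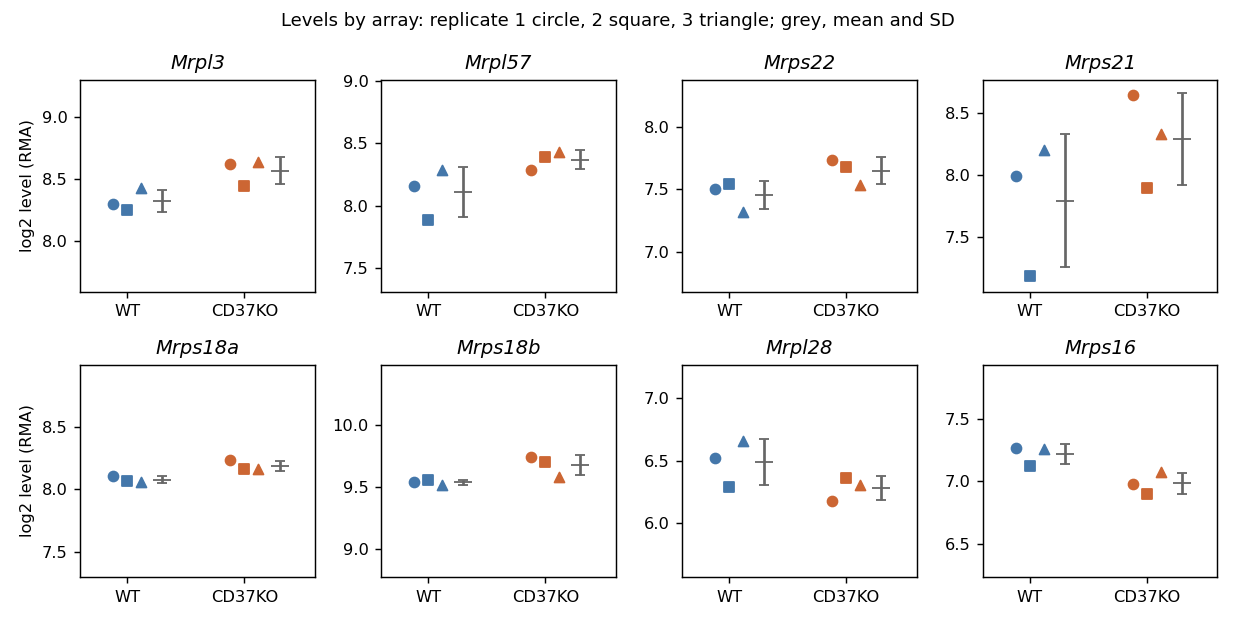
Log2 level (RMA) of 8 members in the 3 WT (blue) and 3 CD37KO (orange) arrays, on axes of equal length; circle, square and triangle are replicates 1, 2 and 3 and grey bars the mean and SD. CD37KO arrays lie above all WT arrays for Mrpl3, Mrps18a and Mrps18b and below them for Mrps16, and Mrps21 has the widest spread.

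The subunits were compared as deviations of each gene from its own mean over the 6 arrays, since levels of different probe sets cannot be set against each other. Large subunit genes deviated on average by -0.011, -0.099 and 0.0001 in WT replicates 1, 2 and 3 and by 0.066, -0.032 and 0.075 in CD37KO replicates 1, 2 and 3. Small subunit genes deviated by 0.0083, -0.10 and -0.023 in WT and by 0.10, -0.033 and 0.049 in CD37KO. In both subunits CD37KO replicates 1 and 3 were the highest arrays and WT replicate 2 the lowest, and CD37KO replicate 2 lay among the WT arrays. CD37KO exceeded WT by 0.073 in the large and 0.078 in the small subunit, while the pooled SD between arrays of a group was 0.057 and 0.063. The gap between the subunits, large minus small, averaged 0.0027 over the 3 WT arrays with an SD of 0.021. Over the 3 CD37KO arrays it averaged -0.0027 with an SD of 0.031, so that the genotypes differed by -0.0054. The widest gaps were -0.036 in CD37KO replicate 1 and 0.026 in CD37KO replicate 3. These are values of single arrays, whereas -0.0054 is a difference between means of 3 arrays, so their sizes are not comparable. The median log2 difference was 0.069 for large and 0.047 for small subunit genes, and 38 of 48 and 21 of 29 differences were above 0. After a further quantile normalization the medians were 0.037 and 0.0060.

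Proteins with a bacterial counterpart and those found only in mitochondria were also set apart, by the numbers they carry in the family's nomenclature. The median difference was 0.052 for the 28 large subunit genes with a counterpart and 0.094 for the 20 without. In the small subunit the order was reversed, with 0.083 for the 16 with and 0.045 for the 13 without. Differences of both signs occurred in all 4 groups, and no test was made.

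Of the 77 members, 25 had their highest level in CD37KO replicate 1 and 25 in CD37KO replicate 3, and 30 had their lowest level in WT replicate 2. The small subunit was highest in CD37KO replicate 1 more often (14 of 29 genes) and the large in CD37KO replicate 3 (18 of 48). CD37KO replicates 1 and 3 were also the highest arrays for macrophage and monocyte markers (9.15 and 9.12), for neutrophil markers (7.93 and 7.24) and for markers of proliferating cells (8.50 and 8.49), as well as for those of plasma cells (8.89 and 8.92) and erythroblasts (6.61 and 6.61). WT replicate 1 reached 8.997 for the macrophage list with member deviations near 0. WT replicate 2, the lowest array for the members, had the third highest proliferation level (8.32). All genes above background deviated by 0.050 and 0.021 in CD37KO replicates 1 and 3 and by -0.020 in WT replicate 2. With the neutrophil markers as a covariate the median difference was -0.0069 in the large and -0.049 in the small subunit, and with the macrophage markers it was 0.059 and 0.039. The array means of the neutrophil markers did not overlap between the genotypes, though 5 of the 12 genes did, so their part and that of the genotype cannot be told apart. The part of the proliferation, plasma cell, erythroblast, stromal, T cell and dendritic cell markers in the result was not tested.

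**Figure D4:**
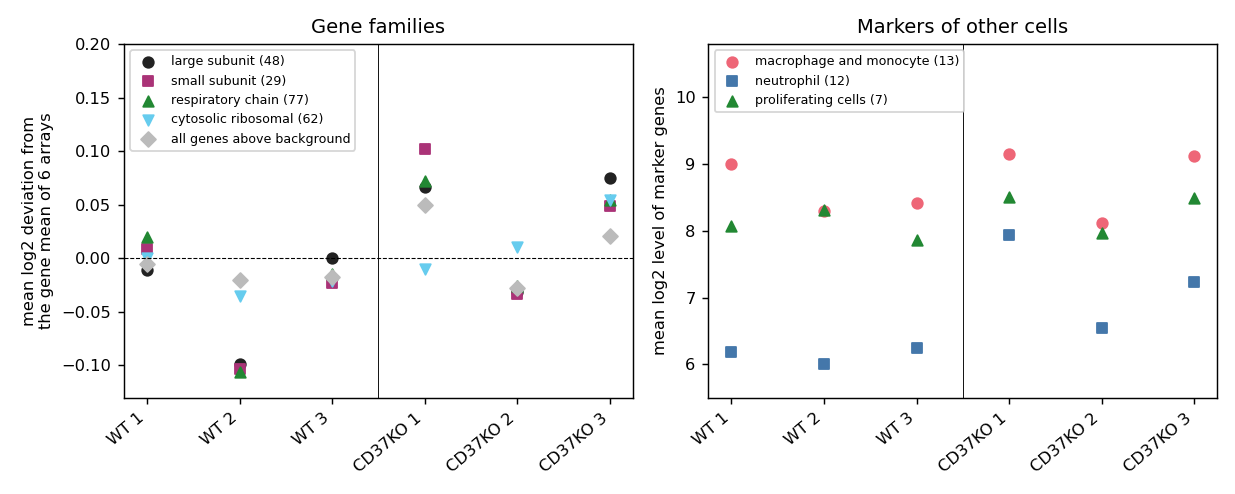
Left, mean log2 deviation from the gene mean in each of the 6 arrays for large and small subunit genes, respiratory chain subunits, cytosolic ribosomal proteins and all genes above background. Right, mean log2 level of macrophage, neutrophil and proliferation markers in the same arrays; CD37KO replicates 1 and 3 are highest for the members and for these markers, and WT replicate 2 is lowest for the members.

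Subunits of the respiratory chain and ATP synthase that the nucleus encodes, the partners of the proteins made by this ribosome, were taken for comparison, together with cytosolic ribosomal proteins. The 77 respiratory chain genes had a median log2 difference of 0.059, with 63 above 0 (81.8%, against 41.8% of all genes and 57.0% of those above background). At an unadjusted p under 0.05, 3 were higher (3.90%, against 2.96% of all genes and 5.10% of those above background) and 0 were lower. Their deviations were lowest in WT replicate 2 (-0.11) and highest in CD37KO replicates 1 (0.072) and 3 (0.055), the same arrays as for the members. The 62 cytosolic ribosomal protein genes had a median of 0.028, with 43 above 0 (69.4%), and did not have CD37KO replicate 1 among their higher arrays (-0.010). The median SD between arrays of a group was 0.11 for members, 0.091 for the respiratory chain, 0.068 for cytosolic ribosomal proteins and 0.10 for genes above background. No test was made between these families, and no gene of the families passed an adjusted p under 0.05 from limma.

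**Figure D5:**
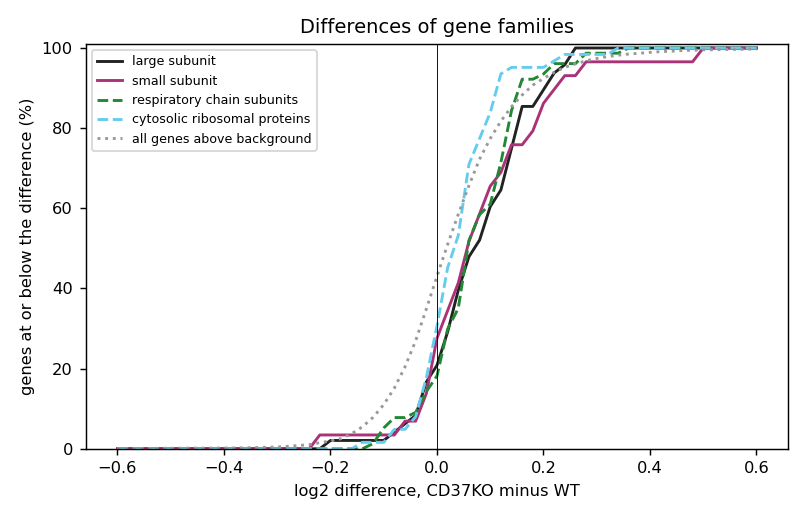
Cumulative share of genes (%) by log2 difference (CD37KO minus WT) for large and small subunit genes, respiratory chain subunits, cytosolic ribosomal proteins and the 9874 genes above background. The curves of both subunits run close to that of the respiratory chain and, between differences of -0.1 and 0.1, to the right of all genes above background.

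Other genes of mitochondrial translation and ribosome assembly, listed with genes that express, copy or control mitochondrial DNA, gave 86 measured of 90 listed, and none passed an adjusted p under 0.05 from limma. At an unadjusted p under 0.05, 7 were higher (8.14%, against 2.96% of all genes and 5.10% of genes above background) and 1 was lower (1.16%, against 2.99% and 2.10%). Of the 86, 80 were above background in all arrays. The 7 were Slirp, Pprc1, Chchd1, Sars2, Tars2, Tefm and Mettl15, and the groups did not overlap for any of them. Over all 86 genes, the groups did not overlap for 14 that were higher (16.3%, against 4.33% of all genes and 6.98% of genes above background). They did not overlap for 1 that was lower (1.16%, against 7.57% and 4.62%). Slirp, which stabilises mitochondrial mRNA together with Lrpprc, was at 7.33, 7.27 and 7.34 in WT and at 7.55, 7.48 and 7.60 in CD37KO, a gap of 0.23 ± 0.063 (SE, log2) with an adjusted p of 0.801 from limma. Pprc1, a coactivator of nuclear genes for mitochondria, was at 7.97, 8.05 and 7.81 in WT and at 8.30, 8.11 and 8.32 in CD37KO, a difference of 0.31. The count of these genes, in either direction, was 8 with all arrays and 14 when WT replicate 2 was left out. It was 5 when WT replicate 3 or CD37KO replicate 3 was left out. Of all genes, 5.95% passed in either direction with all arrays, and the share without each array is not given.

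By role, 4 of 5 subunits with other names were measured. Chchd1, a small subunit protein, had a difference of 0.30 ± 0.094 (SE, log2) with an adjusted p of 0.801 from limma, Gadd45gip1 one of 0.13 and Dap3, a small subunit protein that binds GTP, one of -0.08. Of 28 assembly factors, Mettl15, a methyltransferase of the small subunit RNA, had a difference of 0.18 and Mtg2, a GTPase of large subunit assembly, one of -0.17. The mitochondrial synthetases for serine and threonine tRNA, Sars2 and Tars2, had differences of 0.22 and 0.23 among 21 genes for synthetases and the glutamyl-tRNA amidotransferase. Among 17 genes of mitochondrial DNA expression and its control, Tefm, an elongation factor of mitochondrial transcription, differed by 0.20 but was above background in only 1 array. For their known roles, and chosen after their values were seen, Tfam and Tufm are added. Tfam, the packaging factor of mitochondrial DNA, had a difference of -0.08, and Tufm, the elongation factor that brings tRNA to the ribosome, one of 0.12.

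Position relative to the deleted Cd37 gene on chromosome 7 was also looked at. In the gene order of GRCm38.p6, members lay on 17 chromosomes, 6 of them on chromosome 7, and none was among the 150 measured genes on either side of Cd37. The nearest were the adjacent genes Mrpl46 and Mrps11, 166 and 167 genes away, both with log2 differences of 0.13. Mrps12 is the neighbour of Sars2, and their differences were -0.06 and 0.22. Mrpl43 is the neighbour of the helicase gene Twnk, with differences of -0.0031 and 0.06.

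The promoter motifs were then set beside the array values, as a description. The median log2 difference was 0.10 for the 25 members with an ETS match and 0.047 for the 43 without. For NRF1 it was 0.10 for the 13 with a match and 0.047 for the 55 without. For YY1 it was 0.068 for the 12 with a match and 0.056 for the 56 without. Differences above 0 were found in 17 of 25 members with and 34 of 43 without an ETS match. For NRF1 this was 11 of 13 and 40 of 55, and for YY1 11 of 12 and 40 of 56. The median was 0.099 for the 5 members with a TATA match and 0.048 for the 63 without. It was lower with a match for CCAAT (0.036 against 0.077) and for the GC box (0.047 against 0.066). Whether a motif goes with the difference was not tested. Mrps16, the member with the lowest difference, and Mrps21, the member with the highest, both had an ETS match.

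For 8 members the array carries a second probe set, and the brighter was used. Both sets followed each other across the 6 arrays for Mrpl23 (r = 0.94), Mrps33 (r = 0.91), Mrpl27 (r = 0.84) and Mrps36 (r = 0.78), and less so for the other 4 (r from -0.50 to 0.32). The sets of Mrpl51 gave log2 differences of -0.09 and 0.17, those of Mrps5 0.015 and -0.12, those of Mrpl23 0.0024 and -0.04 and those of Mrpl47 0.04 and -0.05, the second of the latter being below background. For these 4 genes the direction depends on the probe set. The gene table lists pseudogenes of Mrpl23, Mrpl27, Mrpl48 and Mrps36, whose transcripts could share probes with the genes.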

How the data were processed

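RNA from splenic B cells of both genotypes (3 mice each) was hybridised to Affymetrix mouse gene arrays. Each deposited value is the log2 level of a probe set, for which the submitters' processing notes name RMA and the build mm8. The sources used here do not give the software version. RMA pulls low signals together, so differences near background are compressed. Of 35361 probe sets, 21780 name a single gene, 1605 several and 11976 none in the annotation used. Symbols were updated through Entrez Gene IDs with RefSeq's GRCm38.p6 table (91 IDs not found), and the brightest probe set of each gene was kept. RefSeq served only for names, gene order and promoter sequence, because the build of the files differs.

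Genotypes were compared with limma (version 3.58.1, R version 4.3.3) by a linear model with moderated variances. P-values were two-sided, were adjusted by the Benjamini-Hochberg method across 19935 genes and measure the spread between mice. The script was first tested on simulated data. The number of arrays limits the precision. Deviations, medians and counts over members are descriptions. The members, lists and alternatives were chosen with earlier results of these data known. Named members had an unadjusted p under 0.05, no overlap between groups, a level under background in any array, one of the 3 highest or lowest differences per subunit, or a known role, and of each other list up to 4 genes with the smallest p were named. Alternatives changed the normalization (quantile, median centring), the summary of probe sets, the filter on background and its percentile, or the variance model (trend and robust, unmoderated, array weights). Others added the replicate block or a marker score as covariate, or left out each array. Assigning subunits by place in the ribosome was added after the data were seen.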

Additional observations from a re-analysis of the deposited data

How the results depend on the processing

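Under none of the 16 alternatives run, unmoderated least squares included, was a member called at an adjusted p under 0.05. The 3 members higher at an unadjusted p under 0.05 became 1 with quantile normalization or the macrophage covariate and 0 with the neutrophil covariate. They became 14 with array weights, 7 with the replicate block and 1 to 14 when 1 array was left out. The share of all genes higher, 2.96% in the main comparison, was 2.62% with quantile normalization and 1.23% with the neutrophil covariate. It was 7.23% with array weights, 3.22% with the replicate block and 1.52% to 6.48% with 1 array left out. The count of 14 with array weights thus came with a larger share of all genes as well. The 1 lower member became 2 with array weights and 1 to 4 with an array left out, and the shares of all genes lower in these fits are not given. The 8 genes of the other mitochondrial lists at an unadjusted p under 0.05 became 17 with array weights and 2 with the neutrophil covariate. With an array left out they became 5 to 14. The share of all genes in either direction is not given for these settings. The 11 genes called over all genes became 3 with ordinary least squares, 19 with array weights, 4 with the replicate block, 2 with the neutrophil covariate and 4 to 14 with an array left out. The median log2 difference moved by more than the spread between arrays only with the neutrophil covariate, to -0.0069 in the large and -0.049 in the small subunit, and the gap between subunits moved only there, to 0.022. Quantile normalization lowered the medians to 0.037 and 0.0060, a shift under that spread. Subunits assigned by place in the ribosome gave medians of 0.069 and 0.057. Left-out arrays gave medians of 0.051 to 0.096 in the large and 0.034 to 0.095 in the small subunit. Of the 77 members, 26 kept their sign under every alternative that gave a value, Mrps16, Mrpl28 and Mrpl3 among them. The background filter, the trend and robust model, ordinary least squares and the replicate block leave the difference itself unchanged, so they could not change a sign. Members above background in all arrays numbered 76, 73 and 66 with the 90th, 95th and 99th percentile. Deviations of same-numbered arrays of the 2 genotypes from their group means correlated at r = 0.30, 0.10 and -0.12. Those of differently numbered arrays ran from -0.48 to 0.37. These values do not settle whether the numbers mark pairs, so what the replicate block stands for is not known. The cause of these shifts was not tested. RMA values give no counting error, and low signals limit Mrpl22, Mrps12, Mrpl44 and Mrps26.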
